A study of Mus musculus with 36 samples.

Results

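The annexins described here were the 10 genes Anxa1, Anxa2, Anxa3, Anxa4, Anxa5, Anxa6, Anxa7, Anxa8, Anxa10 and Anxa13, taken by symbol from a fixed list and matched to their Ensembl identifiers among the 52636 genes of the deposited count tables. RNA was sequenced from 36 cultures of organoids grown from jejunal crypts of C57BL/6 mice, with 6 replicates in each of 6 conditions. Organoids are small closed epithelia that grow in gel from intestinal stem cells. Of these, 4 had control IgG, in complete media, in QCM, in SCM or with Wnt5a, and the other 2 had anti-Ptk7, in SCM or with Wnt5a. QCM came from quiescent and SCM from senescent mouse embryonic fibroblasts, as conditioned medium that was concentrated and mixed with IntestiCult, the complete culture medium. Wnt5a is a ligand of noncanonical Wnt signaling, and Ptk7 is a Wnt co-receptor of the cell surface whose shed extracellular domain was under study. All cultures received an antibody, either control IgG or anti-Ptk7, and no culture in complete media or QCM received anti-Ptk7. The crypts came from 6 mice, but which replicate number belongs to which mouse is not given in the labels, so p values here measure the spread between these cultures.

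Annexins are cytosolic proteins that bind acidic phospholipids of membranes when calcium rises, through a core of repeated domains and an N-terminal tail that differs between members. They link membranes to the cytoskeleton, to S100 proteins and to vesicles, and several of them gather at wounded plasma membrane. Calcium is also a second messenger of noncanonical Wnt signaling. Of the genes listed, Anxa2 works in a tetramer with S100a10, Anxa1 is known for its anti-inflammatory action through formyl peptide receptors, Anxa4 is abundant in secretory and absorptive epithelium, Anxa10 is known from gastric mucosa, and Anxa13 is the annexin named for the intestine.

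Totals ranged from 9581589 to 21029769 counts per library, with a median of 13490071, and 15497 genes passed the filter on low counts. The tissue label was met by its markers, since all 8 markers of intestinal epithelium were present in every condition, with a summed level of 8916 to 32340 CPM (counts relative to the library total) per library. Of 8 fibroblast markers, Col3a1, Dcn and Thy1 held no count in any of the 36 libraries, which allows a level of up to 0.143 to 0.313 CPM per library, and the summed level of the list lay between 0 and 7.36 CPM, most of it Pdgfrb. The immune list held 9.57 to 19.3 CPM, of which Csf1r contributed a mean of 13.9 CPM and Adgre1 none, and the 3 endothelial markers together held at most 1.18 CPM. Replicate 1 was the highest library of its condition for most annexins, and far from the others in the Wnt5a conditions, so each comparison is given also without replicate 1 in any condition, a choice made after the data were seen.

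All 10 annexins were detected, with a mean over the 36 libraries above the limit of 0.5 CPM for each, and all 10 passed the filter. Anxa4, a calcium-dependent regulator of membrane order and secretion, and Anxa2 were the most abundant, at 2559 and 2554 CPM. They were followed by Anxa1 at 444.9 CPM, Anxa10 at 261 CPM, Anxa3 at 193 CPM, Anxa7 at 192 CPM and Anxa5 at 148 CPM. Anxa8 stood at 55.6 CPM, Anxa13 at 46.9 CPM and Anxa6, which has a doubled annexin core, at 10.8 CPM. The lowest single count of a member was 15, for Anxa6, and Anxa8 had counts as low as 32 in complete media + IgG, so counting error adds to the spread for both genes. Genes were set against each other per kilobase of coding length, since the paper states that reads in coding sequence were counted. GENCODE gives a coding sequence for 9 of the 10, and Anxa13, annotated there as a processed transcript, was left out of this scale. Anxa13 still held 270 to 1016 counts per library, so the counting may have reached beyond the coding sequence of this annotation. Anxa4 led with 2516 CPM per coding kb, followed by Anxa2 with 2178, Anxa1 with 410.8 and Anxa10 with 262.7 CPM per coding kb. Anxa3 reached 181.5 CPM per coding kb, Anxa5 155.0, Anxa7 130.5, Anxa8 56.7 and Anxa6 5.36 CPM per coding kb. Per kilobase of merged exon length, which includes the UTRs, Anxa2 (685 CPM per kb) stood above Anxa4 (551 CPM per kb) and Anxa5 (83.5) above Anxa3 (53.1), so the order within both pairs depends on the length used. In the GENCODE annotation of GRCm38 the 10 genes lie on 9 chromosomes, with Anxa7 and Anxa8 both on chromosome 14 (20455260 to 20480133, minus strand, and 34085981 to 34100571, plus strand). The most abundant, Anxa4 and Anxa2, lie on chromosome 6 from 86736840 to 86793584, minus strand, and on chromosome 9 from 69453620 to 69491795, plus strand. Anxa1 lies on chromosome 19 from 20373428 to 20390944 and Anxa10 on chromosome 8 from 62057042 to 62123150, both on the minus strand.

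The make-up of the annexin pool differed between the media. Over the 10 genes the summed level was 4339 ± 782 CPM (SD, n = 6) in complete media + IgG, 4811 ± 996 CPM in QCM + IgG, 7389 ± 2222 CPM in SCM + IgG and 8736 ± 2823 CPM in Wnt5a + IgG. With anti-Ptk7 it was 5448 ± 1593 CPM in SCM and 8074 ± 3573 CPM in Wnt5a. On the scale of CPM per coding kb over the 9 annexins, Anxa4 made up a mean of 66.6% ± 8.87 (SD, n = 6) of the pool in complete media + IgG and 55.3% ± 7.15 in QCM + IgG, and Anxa2 made up 20.9% ± 5.16 and 29.1% ± 4.44. In SCM + IgG Anxa4 (38.7% ± 8.11) and Anxa2 (39.1% ± 5.07) stood level within their spread, and in Wnt5a + IgG Anxa4 made up 33.6% ± 5.88 and Anxa2 42.0% ± 4.12. With anti-Ptk7 the shares of Anxa4 and Anxa2 were 49.9% ± 9.28 and 33.5% ± 6.33 in SCM, and 39.0% ± 7.12 and 39.6% ± 5.26 in Wnt5a. Anxa4 was above Anxa2 in 6 of 6 libraries of complete media + IgG, 6 of QCM + IgG, 3 of SCM + IgG, 5 of SCM + anti-Ptk7, 0 of Wnt5a + IgG and 4 of Wnt5a + anti-Ptk7. Per kilobase of merged exon length these numbers were 6, 5, 1, 4, 0 and 0. Anxa10 made up 1.86% in complete media + IgG, 4.23% in SCM + IgG and 5.01% in Wnt5a + IgG, and Anxa8 0.179%, 0.968% and 1.39%.

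**Figure D1:**
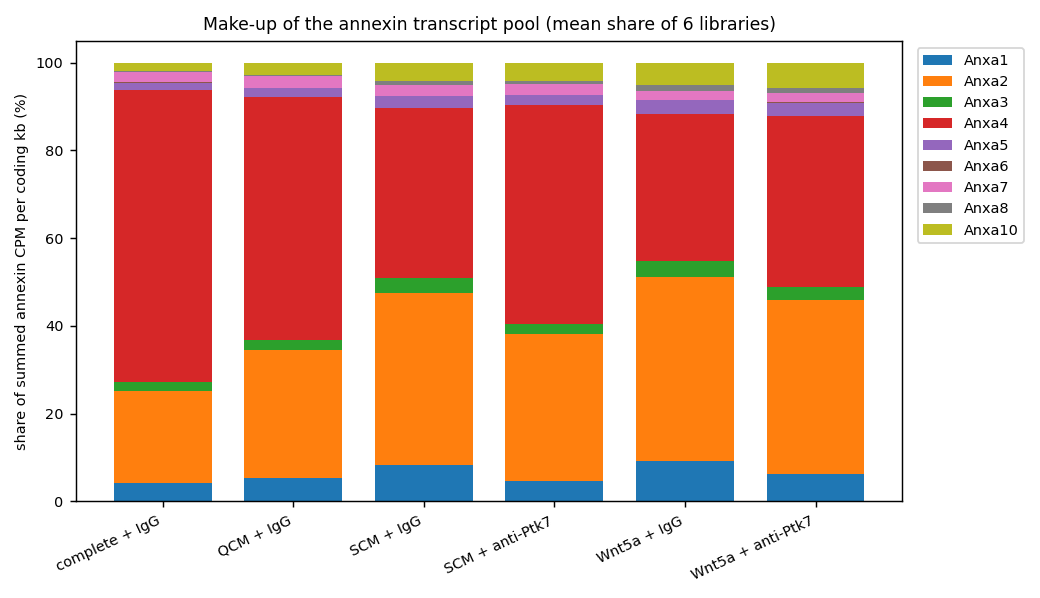
Stacked bars of the mean share (%) of each of 9 annexins in their summed CPM per kb of coding length, by condition, with 6 libraries a bar and no error shown. The Anxa4 block shrinks from 66.6% in complete media + IgG to 33.6% in Wnt5a + IgG, while the Anxa2 block grows from 20.9% to 42.0%.

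SCM was compared with complete media to ask how medium of senescent fibroblasts acts on the epithelium. A call needed both an adjusted p below 0.05 and more than a 1.5-fold difference, by edgeR's quasi-likelihood test across all 15497 genes. In SCM + IgG, 8 of the 10 annexins were higher and 0 were lower, where 4.96% of all genes tested were called higher and 1.12% lower. The 8 were Anxa1, Anxa2, Anxa3, Anxa5, Anxa6, Anxa7, Anxa8 and Anxa10. The median log2 fold change was 1.44 over the 10 annexins and 0.01 over all genes tested. In bulk RNA, fewer cells of a type and less RNA per cell cannot be told apart, which holds for each difference given here. Without replicate 1 in any condition, 8 annexins were called higher again, against 5.12% of all genes in that fit.

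Wnt5a was compared with complete media to ask what the ligand does without fibroblast medium. In Wnt5a + IgG the same 8 annexins were higher and 0 were lower, where 8.29% of all genes tested were called higher and 1.88% lower. The median log2 fold change was 1.77 over the 10 annexins and 0.01 over all genes tested. The SCM and Wnt5a comparisons share the libraries of complete media + IgG, so their values stand side by side and are not independent. Without replicate 1 in any condition, 7 annexins were called higher, against 7.3% of all genes in that fit, and Anxa7 then had a log2 fold change of 0.58, a fold below 1.5. Libraries of the groups did not overlap for 3 annexins in SCM, where 6.29% of all genes tested had groups apart, and for 8 annexins in Wnt5a, where 11.7% did. The 8 in Wnt5a were the annexins called higher other than Anxa7, together with Anxa13, whose libraries lay lower.

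**Figure D2:**
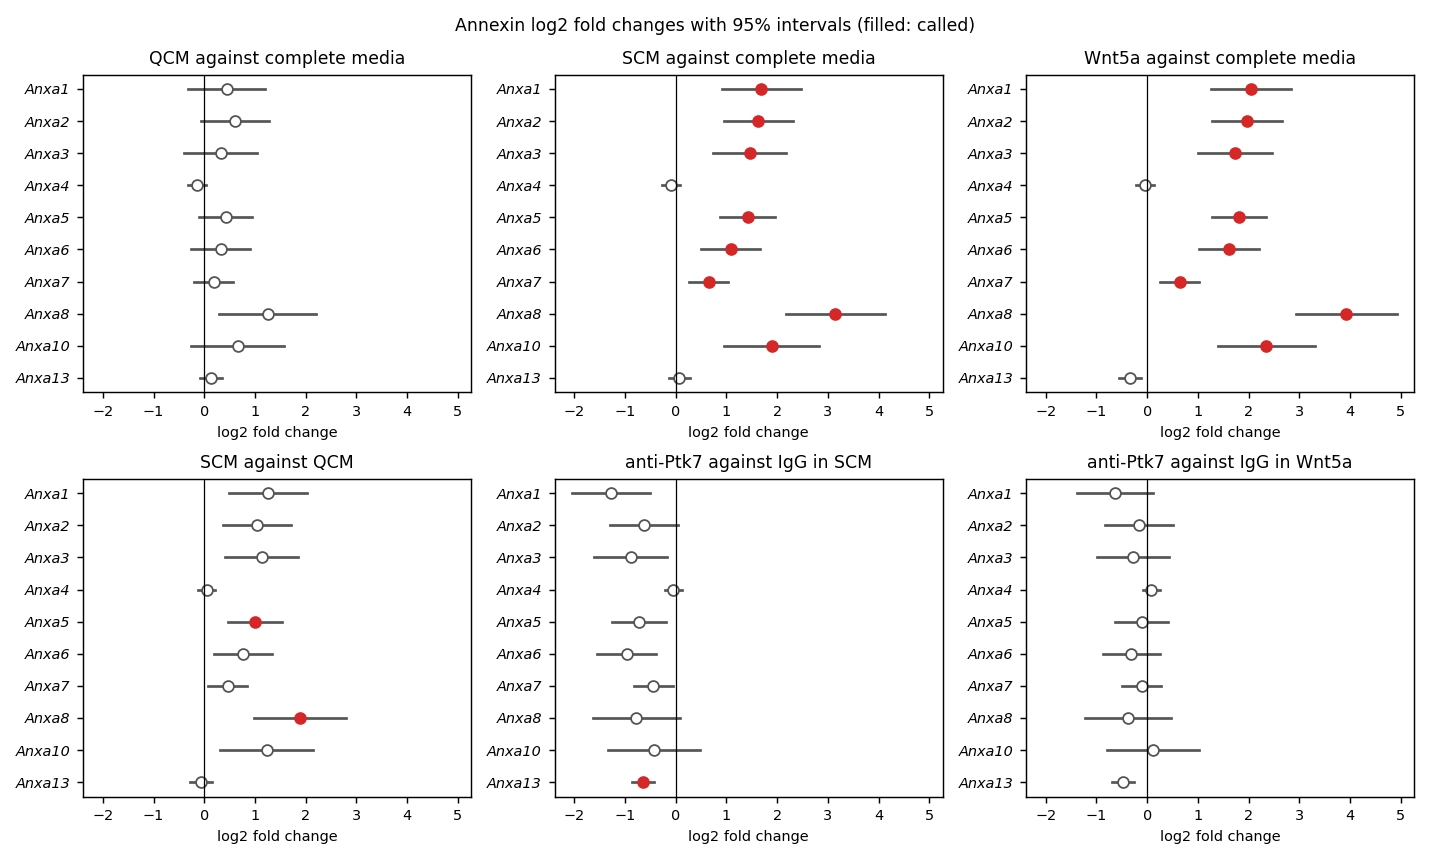
Log2 fold change of each annexin with its 95% interval in 6 comparisons from edgeR's quasi-likelihood fit of 36 libraries, with filled points for called genes. Filled points number 8 in SCM and in Wnt5a against complete media, 2 in SCM against QCM, 1 for anti-Ptk7 in SCM, and 0 for QCM against complete media and for anti-Ptk7 in Wnt5a.

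Anxa8, an annexin known from stratified epithelia, showed the largest fold changes of the 10. Its level in complete media + IgG ran from 2.67 to 17.4 CPM with a median of 5.58 CPM. In SCM + IgG it ran from 26.99 to 112 CPM with a median of 60.02 CPM, and in Wnt5a + IgG from 63.3 to 239 CPM with a median of 87.4 CPM. The lowest library of either medium lay above the highest of complete media. The log2 fold change was 3.14 in SCM (SE 0.480, adjusted p = 2.65e-05) and 3.92 in Wnt5a (SE 0.490, adjusted p = 4.92e-07), by edgeR's quasi-likelihood test. In QCM + IgG the level ran from 7.83 to 32.3 CPM, and the highest of these libraries passed the lowest of SCM + IgG.

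Anxa10 and Anxa2 rose in both media from higher levels. Anxa10 ran from 15.6 to 163 CPM with a median of 61.6 CPM in complete media + IgG, from 110 to 536 CPM with a median of 286 CPM in SCM + IgG, and from 241 to 718 CPM with a median of 328 CPM in Wnt5a + IgG. The complete media and Wnt5a libraries did not overlap, and those of complete media and SCM did. The log2 fold change of Anxa10 was 1.89 in SCM (adjusted p = 0.00564) and 2.34 in Wnt5a (adjusted p = 0.000408), by edgeR. Markers of gastric mucosa, where Anxa10 is best known, were at or near 0: Gkn2 held no count in any library, Gkn1, Muc5ac, Muc6 and Tff2 had means under 0.25 CPM in every condition, and only Tff1, a trefoil peptide, passed the filter, with a mean of 0.325 CPM in complete media + IgG and 5.59 CPM in Wnt5a + IgG. Anxa2 ran from 585 to 1782 CPM with a median of 899 CPM in complete media + IgG, from 1765 to 5222 CPM with a median of 2836 CPM in SCM + IgG, and from 2775 to 7414 CPM with a median of 3285 CPM in Wnt5a + IgG. Its SCM libraries overlapped those of complete media in a single library on each side, and its Wnt5a libraries lay above all of them. The log2 fold change of Anxa2 was 1.63 in SCM (adjusted p = 0.00116) and 1.97 in Wnt5a (adjusted p = 7.07e-05), by edgeR.

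Anxa1, Anxa3 and Anxa5 rose by similar amounts. Anxa1 ran from 69.8 to 362 CPM with a median of 169.5 CPM in complete media + IgG, from 311 to 1185 CPM with a median of 589 CPM in SCM + IgG, and from 506 to 1386 CPM with a median of 699 CPM in Wnt5a + IgG. Its log2 fold change was 1.69 in SCM (adjusted p = 0.00272) and 2.05 in Wnt5a (adjusted p = 0.000209), by edgeR. For Anxa1, replicate 1 of complete media + IgG lay within the SCM libraries and under all Wnt5a libraries. Anxa3, an annexin known from neutrophils, had means of 92.5 ± 45.5 CPM in complete media + IgG, 254 ± 117 CPM in SCM + IgG and 307 ± 124 CPM in Wnt5a + IgG (SD, n = 6), with log2 fold changes of 1.46 and 1.73. Anxa5, the phosphatidylserine binder used to stain dying cells, had means of 66.6 ± 19.2 CPM, 178 ± 53.5 CPM and 233 ± 73.9 CPM in the same order, with log2 fold changes of 1.42 and 1.81. For Anxa5 all libraries of either medium lay above all libraries of complete media, which for Anxa3 held in Wnt5a alone.

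Anxa6 and Anxa7 moved less. Anxa6, which works in endocytic traffic, ran from 4.597 to 7.02 CPM in complete media + IgG, from 9.17 to 19.1 CPM in SCM + IgG and from 11.3 to 22.9 CPM in Wnt5a + IgG, so the libraries of complete media lay under all the others of the 3. Its log2 fold change was 1.08 in SCM (adjusted p = 0.0114) and 1.61 in Wnt5a (adjusted p = 0.000118), by edgeR. Anxa7, a binder of the penta-EF-hand proteins sorcin and ALG-2, had means of 146 ± 31.8 CPM, 231 ± 67.1 CPM and 228 ± 60.7 CPM (SD, n = 6), and its libraries overlapped in both comparisons. The log2 fold change of Anxa7 was 0.66 in SCM (adjusted p = 0.0201) and 0.64 in Wnt5a (adjusted p = 0.0134), by edgeR, near the limit of a 1.5-fold change. The SCM call of Anxa7 was lost without replicate 2 or 3 of complete media + IgG or replicate 1 or 5 of SCM + IgG (adjusted p = 0.0559, 0.0649, 0.110 and 0.0514, by edgeR). Its Wnt5a call was lost without replicate 2 or 3 of complete media + IgG, where the log2 fold change was 0.58 and 0.57, or without replicate 1 of Wnt5a + IgG (adjusted p = 0.0798, by edgeR).

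Anxa4 and Anxa13 did not rise. Anxa4 ran from 2570 to 2861 CPM in complete media + IgG, from 2314 to 2914 CPM in SCM + IgG and from 2276 to 3057 CPM in Wnt5a + IgG, and the 3 ranges overlapped. Its log2 fold change was -0.09 in SCM (95% interval -0.27 to 0.08) and -0.05 in Wnt5a (95% interval -0.22 to 0.13), intervals that hold no rise of 1.5 times. In one test over the 6 conditions, 9 of the 10 annexins differed, where 39.5% of all genes tested did, and Anxa4 was the exception (adjusted p = 0.315, by edgeR). Anxa13 ran from 49.5 to 64.1 CPM in complete media + IgG, from 51.3 to 66.2 CPM in SCM + IgG and from 38.7 to 49.4 CPM in Wnt5a + IgG. Its log2 fold change was 0.07 in SCM (95% interval -0.14 to 0.29) and -0.33 in Wnt5a (adjusted p = 0.0225, by edgeR), a fold under 1.5, although the libraries of Wnt5a + IgG lay under all of complete media. In the annotation Anxa13 is a processed transcript marked with a reference genome error, on chromosome 15 from 58341471 to 58389244 of GRCm38.

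**Figure D3:**
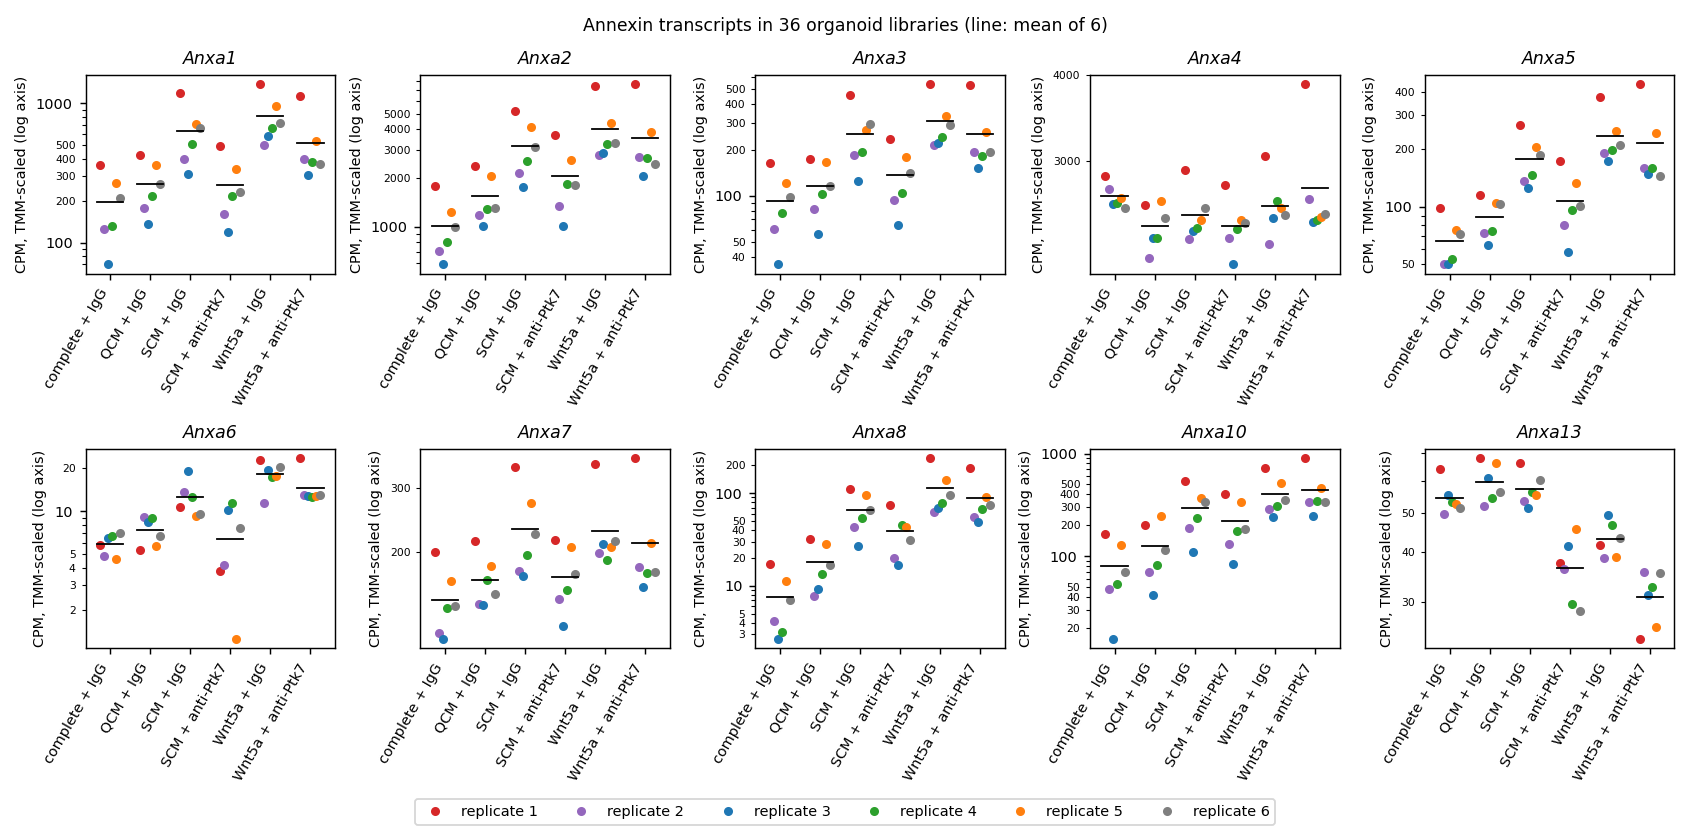
TMM-scaled CPM (log axis) of each annexin in 36 libraries by condition, with points coloured by replicate number and a line at the mean of 6 libraries. Replicate 1 (red) is the highest point in 6 of 6 conditions for Anxa1, Anxa2, Anxa3, Anxa5, Anxa7 and Anxa8, and Anxa13 alone sits lower with anti-Ptk7 with no overlap.

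Promoter windows of the annexins were read, since TEAD factors, the DNA-binding partners of YAP, and AP-1 factors are known regulators of genes in regenerating epithelium. RefSeq windows of 300 bases (250 before to 50 after a gene's start, GRCm38.p6) were found for 7 of the 10 annexins, in 9 windows, and not for Anxa3, Anxa6 and Anxa13. Searched on both strands, the letters GGAATG (TEAD) were in the window of Anxa1 alone, against 14.7% of 32851 windows of all genes, and the letters TGANTCA (AP-1) were in those of Anxa2 and Anxa10, against 7.81%. The 2 motifs share no overlap in these windows. The windows of Anxa10 and Anxa2 are shown upstream of the start for their TGANTCA matches, that of Anxa8 because it rose most and held neither motif, and that of Anxa1 as the 30 bases around its match, with matches in capitals and all read 5′ to 3′ on the gene's strand. The stretch of Anxa2 stops where an annotated exon of the gene begins, so the bases from there to the RefSeq start are left out.
Anxa10, chr8:62123194-62123443, minus strand: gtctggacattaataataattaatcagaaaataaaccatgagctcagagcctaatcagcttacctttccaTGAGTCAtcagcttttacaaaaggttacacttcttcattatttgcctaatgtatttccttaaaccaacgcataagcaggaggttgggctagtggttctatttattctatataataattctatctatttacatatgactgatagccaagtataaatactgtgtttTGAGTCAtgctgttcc
Anxa2, chr9:69453433-69453619, plus strand: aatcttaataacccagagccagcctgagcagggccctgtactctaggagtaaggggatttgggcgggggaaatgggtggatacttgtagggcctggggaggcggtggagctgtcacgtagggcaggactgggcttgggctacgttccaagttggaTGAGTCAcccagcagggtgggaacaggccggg
Anxa8, chr14:34085729-34085978, plus strand: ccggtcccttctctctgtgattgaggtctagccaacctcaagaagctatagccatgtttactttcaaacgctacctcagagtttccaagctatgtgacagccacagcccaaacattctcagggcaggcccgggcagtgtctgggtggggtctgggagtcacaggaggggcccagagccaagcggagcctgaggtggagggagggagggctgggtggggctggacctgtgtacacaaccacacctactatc
Anxa1, chr19:20390890-20390919, minus strand: actgcactgaacCATTCCtgtgaggaataa
The first bases of the matches lay at -180 and -16 from the start in Anxa10, at -95 in Anxa2 and at -236 in Anxa1, where the match is on the opposite strand and within an exon of another transcript model of the gene. A match describes letters in a window, and binding was not measured.

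QCM was compared with complete media because quiescent fibroblasts are the control for senescent ones. No annexin was called, where 0.355% of all genes tested were called higher and 0.0194% lower, and only Anxa8 had an unadjusted p under 0.05 by edgeR's quasi-likelihood test. DESeq2 and voom with limma called 0 annexins as well, and edgeR called 0 without replicate 1 in any condition, where Anxa8 had a log2 fold change of 1.42 (adjusted p = 0.0563). With the replicate number as a block in edgeR's model, 3 annexins were higher, against 1.07% of all genes. These were Anxa2 (0.63), Anxa8 (1.31) and Anxa10 (0.72), with adjusted p of 1.37e-05, 6.00e-06 and 0.00806 by edgeR. In the model of condition means, the log2 fold changes of 9 annexins were above 0 and that of Anxa4 was -0.14. Their median was 0.37 over the 10 and 0.02 over all genes tested. The annexins share these libraries, so their signs are not separate cases. Anxa8 had a mean of 7.63 ± 5.78 CPM in complete media + IgG and 18 ± 10.2 CPM in QCM + IgG (SD, n = 6), a log2 fold change of 1.26 with a 95% interval of 0.30 to 2.21 (adjusted p = 0.239, by edgeR). Anxa2 had a mean of 1542 ± 552 CPM in QCM + IgG, and its log2 fold change of 0.60 had an interval of -0.07 to 1.27. For Anxa1, Anxa2, Anxa3, Anxa5, Anxa6 and Anxa10 the interval held both no change and a rise past 1.5 times.

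SCM against QCM sets senescent against quiescent fibroblast medium. Of the 10 annexins, 2 were higher and 0 were lower, where 0.761% of all genes tested were called higher and 0.142% lower. Anxa5 had a log2 fold change of 1.00 (SE 0.262, adjusted p = 0.0400) and Anxa8 of 1.89 (SE 0.443, adjusted p = 0.0233), by edgeR. Anxa5 ran from 63.3 to 115 CPM in QCM + IgG and from 125 to 268 CPM in SCM + IgG, with no overlap. Libraries were apart for 2 annexins, Anxa5 and Anxa6, where 2.19% of all genes tested had groups apart. Anxa1, Anxa3, Anxa10 and Anxa2 had log2 fold changes of 1.26, 1.13, 1.23 and 1.03 with adjusted p between 0.0711 and 0.146 by edgeR, and Anxa6 and Anxa7 of 0.77 and 0.47. Without replicate 1 in any condition 5 annexins were higher, with Anxa1 (1.16), Anxa2 (1.00) and Anxa3 (1.03) in addition, while the share of all genes called higher in that fit was 1.58%. With only the groups compared, 5 were higher (1.67% of all genes), and by voom with limma 3 were, with Anxa1 added (1.21, adjusted p = 0.0474) and 0.787% of all genes. With the replicate number as a block in edgeR's model 6 were higher (2.74% of all genes), with Anxa1, Anxa2, Anxa3 and Anxa10 added. In the model of condition means, the calls of Anxa5 and Anxa8 were lost without replicate 2, 3 or 4 of QCM + IgG (adjusted p from 0.0725 to 0.135, by edgeR). Both were also lost without replicate 1 of SCM + IgG (0.140 for Anxa5 and 0.0847 for Anxa8). That of Anxa5 was lost too without replicate 5 or 6 of SCM + IgG (0.0683 and 0.0635).

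Anti-Ptk7 was compared with IgG in SCM to ask what blocking Ptk7 does to the response. Of the 10 annexins 1 was lower and 0 were higher, where 0.645% of all genes tested were called lower and 0.581% higher. That gene was Anxa13, which ran from 51.3 to 66.2 CPM with a median of 55.7 CPM in SCM + IgG and from 28.5 to 45.5 CPM with a median of 36.9 CPM in SCM + anti-Ptk7. All 6 libraries with the antibody lay under all 6 with IgG, and no other annexin had groups apart, where 1.73% of all genes tested did. Anxa13 fell by 0.64 on the log2 scale (SE 0.107, adjusted p = 0.000665, by edgeR).

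All 10 annexins had log2 fold changes below 0 with anti-Ptk7 in SCM, with a median of -0.69 against 0 over all genes tested. The annexins share these libraries, so the shared sign is not 10 separate cases. By edgeR, 6 of them had an unadjusted p under 0.05, a level for which the share of all genes is not given. Anxa1 had a mean of 629.5 ± 312 CPM with IgG and 260.1 ± 137 CPM with anti-Ptk7 (SD, n = 6), a log2 fold change of -1.27 with a 95% interval of -2.04 to -0.51 (adjusted p = 0.0569, by edgeR). Anxa6 had means of 12.5 ± 3.67 CPM and 6.41 ± 3.97 CPM, a log2 fold change of -0.96 (adjusted p = 0.0583, by edgeR), and its range with the antibody, from 1.26 to 11.3 CPM, reached into that with IgG. Anxa3, Anxa8, Anxa5 and Anxa2 had log2 fold changes of -0.89, -0.78, -0.73 and -0.62, and Anxa7, Anxa10 and Anxa4 of -0.44, -0.43 and -0.05. These 9 genes did not pass edgeR's test in the model of 6 condition means. With the replicate number as a block in that model, edgeR called 7 annexins lower, against 1.52% of all genes. Added to Anxa13 were Anxa1 (-1.29), Anxa2 (-0.65), Anxa3 (-0.9), Anxa5 (-0.76), Anxa6 (-1.03) and Anxa8 (-0.79). DESeq2 called 2 annexins lower, with Anxa6 added (adjusted p = 0.0258), and 0.865% of all genes. Voom with limma called 3 lower, with Anxa1 and Anxa6 added (adjusted p = 0.0357 and 0.0191), and 0.658% of all genes. Anxa1 passed edgeR's test without replicate 3 of SCM + IgG (-1.42, adjusted p = 0.0358, by edgeR) or replicate 1 of SCM + anti-Ptk7 (-1.56, adjusted p = 0.0231), and Anxa6 without replicate 3 or 4 of SCM + anti-Ptk7 (adjusted p = 0.0340 and 0.0206). Without replicate 1 in any condition, 3 annexins were lower, namely Anxa1 (-1.30), Anxa5 (-0.78) and Anxa13 (-0.62), against 0.895% of all genes in that fit.

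With Wnt5a, anti-Ptk7 left 0 annexins called against IgG, where 0.432% of all genes tested were called lower and 0.452% higher, and 1 annexin, Anxa13, had an unadjusted p under 0.05 by edgeR. DESeq2 and voom with limma also called 0, as did edgeR without replicate 1 in any condition, where Anxa13 had a log2 fold change of -0.43. With the replicate number as a block, edgeR called 1 annexin lower, Anxa1 (-0.7, adjusted p = 0.000278), against 0.8% of all genes. Anxa13 ran from 38.7 to 49.4 CPM with IgG and from 24.4 to 35.7 CPM with anti-Ptk7, again with no overlap, where 2.38% of all genes tested had groups apart. Its log2 fold change was -0.48 (SE 0.108, adjusted p = 0.0111, by edgeR), past the p limit but under a 1.5-fold change. Anxa1 had a log2 fold change of -0.64 (95% interval -1.39 to 0.12), Anxa8 of -0.38 (-1.23 to 0.47), and Anxa2 of -0.17 (-0.83 to 0.50). Anxa10 had 0.12 and Anxa4 0.08.

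The antibody effects in SCM and in Wnt5a were not shown to differ for any annexin. For the difference itself, 0 annexins were called by edgeR, DESeq2 and voom with limma, where 0% of all genes tested were called by edgeR, and 0 had an unadjusted p under 0.05. The difference, effect in Wnt5a less that in SCM, was above 0 for all 10, from 0.13 for Anxa4 to 0.65 for Anxa6. The annexins share these libraries, and 7 of them correlated pairwise at 0.84 to 0.99 within conditions, so the shared sign is not 10 separate cases. For Anxa1 it was 0.64 with a 95% interval of -0.43 to 1.71, which includes both no difference and a large one. For Anxa13 it was 0.17 with an interval of -0.14 to 0.47. Without replicate 1 in any condition, 0 annexins were called for the difference.

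Ordered by mean log2 CPM, complete media + IgG was lowest and Wnt5a + IgG highest for Anxa1, Anxa2, Anxa3, Anxa5 and Anxa8. Of the 50 pairs of neighbouring conditions in the members' own orders, 1 was called, the step of Anxa1 from QCM + IgG to Wnt5a + anti-Ptk7 (0.97 on the log2 scale, adjusted p = 0.0437, by edgeR), where 0.223% of such pairs of all genes were called. It was lost without replicate 2, 3, 4 or 6 of QCM + IgG or replicate 1 or 5 of Wnt5a + anti-Ptk7. The other 49 neighbours were not called. Among them the step of Anxa13 from Wnt5a + IgG to complete media + IgG (0.33 on the log2 scale, adjusted p = 0.0225, by edgeR) passed the test on p with libraries that did not overlap, and stayed under a 1.5-fold change. For Anxa13 the order ran otherwise, from Wnt5a + anti-Ptk7 at a mean of 30.9 ± 4.74 CPM and SCM + anti-Ptk7 at 36.5 ± 6.56 CPM up to QCM + IgG at 59.6 ± 6.57 CPM (SD, n = 6).

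The replicates of a condition differed widely in annexin level, and replicate 1 was mostly the highest. Replicate 1 was the highest library in 6 of 6 conditions for Anxa1, Anxa2, Anxa3, Anxa5, Anxa7 and Anxa8 and in 5 of 6 for Anxa4 and Anxa10, while for Anxa6 and Anxa13 it was so in 2 and 3. Its level over the median of its condition ran from 1.77 to 2.88 times for Anxa1 and from 1.87 to 3.12 times for Anxa8. Replicate 3 was the lowest in 6 of 6 conditions for Anxa10 and in 5 of 6 for Anxa1, Anxa2, Anxa3 and Anxa7. The replicate number held a median of 35.6% of the variation of log2 CPM over the 10 annexins and 13.98% over all genes tested, and the condition held 61.3% and 29.3%. The remainder was 4.04% for the annexins and 53.0% for all genes. Anxa13 was apart, with 81.9% by condition and 1.34% by number, and Anxa4 and Anxa7 varied more by number (52.9% and 53.5%) than by condition (18.3% and 37.5%). The labels do not say what libraries of a number share.

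**Figure D4:**
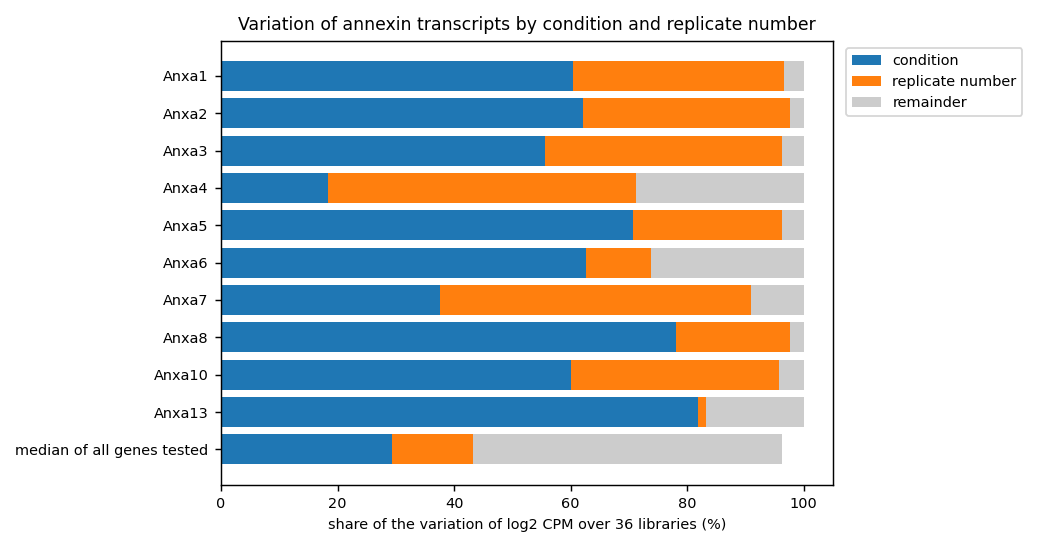
Stacked bars of the share (%) of the variation of log2 CPM over 36 libraries held by condition, by replicate number and by the remainder, for each annexin and as the median of all genes tested (whose medians need not sum to 100%). The remainder is 2.28% for Anxa2 and 28.7% for Anxa4, against 53.0% for the median gene.

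Most members kept close company across the libraries. Among Anxa1, Anxa2, Anxa3, Anxa5, Anxa7, Anxa8 and Anxa10, Pearson's r of log2 CPM over 36 libraries lay between 0.83 and 0.98 for the 21 pairs, and between 0.84 and 0.99 for deviations from the condition means. These points share libraries, conditions and replicate numbers, so r is a description. Anxa4 had r between 0.32 and 0.62 with these 7, Anxa6 between 0.35 and 0.54, and Anxa13 between -0.41 and -0.11. For deviations from the condition means, Anxa6 was between -0.35 and -0.18, whereas Anxa4 was between 0.67 and 0.84.

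The 2 genes outside the family with the most similar pattern over the 36 libraries were found for each member. They were Msln (mesothelin, r = 0.978) and Cxcl16 (a chemokine, 0.975) for Anxa1, Cnn2 (calponin, which binds actin, 0.989) and Krt8 (a keratin, 0.986) for Anxa2, and S100a11 (0.979) and Cxcl16 (0.976) for Anxa3. For Anxa5 they were Cnn2 (0.983) and Rdh10 (0.978), for Anxa7 Gprc5a (0.949) and Tnfaip1 (0.949), for Anxa8 Cwh43 (0.985) and F3 (tissue factor, 0.976), and for Anxa10 Lgals3 (galectin-3, 0.983) and Capg (an actin capping protein, 0.980). Likeness was lower for Anxa4, with Acta1 (0.801) and Sgk1 (0.753), for Anxa6, with Gm29233 (0.776) and Ppp3ca (0.768), and for Anxa13, with Mrpl54 (0.904) and Sssca1 (0.903). Of these 20 genes, 4 were still among the 2 most similar to their member when deviations from the condition means were used.

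Among the genes that work with annexins, a list of 25, 18 passed the filter. The formyl peptide receptors of Anxa1, Fpr1, Fpr2 and Fpr3, and Plg, the plasminogen that Anxa2 binds at the cell surface, held no count in any library. In SCM + IgG 9 of the 18 were higher than in complete media and 0 lower, with a median log2 fold change of 0.94. In Wnt5a + IgG 9 were higher and 0 lower, with a median of 0.88. Against 4.96% and 8.29% of all genes called higher, both counts include the S100 partners S100a10 (log2 fold change 1.09 in SCM and 0.89 in Wnt5a), S100a11 (1.39 and 1.44) and S100a6 (2.07 and 2.03), and the scaffold Ahnak (1.95 and 2.87). S100a10, which binds Anxa2, had a mean of 331 ± 85.2 CPM in complete media + IgG, 702.5 ± 219 CPM in SCM + IgG and 613 ± 126 CPM in Wnt5a + IgG (SD, n = 6).

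Of 6 genes of membrane repair, 5 were tested, and 3 of them were higher in SCM and 4 in Wnt5a. Capn1 and Capn2, calcium-dependent proteases, had log2 fold changes of 1.05 and 2.08 in SCM and 1.26 and 2.73 in Wnt5a, and Myof, a ferlin of membrane fusion, of 1.44 and 2.42. Plaur, the urokinase receptor, had 1.33 and 1.85. Pdcd6 (ALG-2) was called in SCM (0.62) and had 0.58 in Wnt5a, and Capns1, the small calpain subunit, was called in Wnt5a (0.87) and had 0.48 in SCM. Trim72, a membrane repair protein, was not called (0.83 in SCM and 0.44 in Wnt5a), and Dysf, another ferlin, did not pass the filter. The copines Cpne2 and Cpne3, which also bind phospholipid with calcium, and Pla2g4a, a phospholipase linked to Anxa1, were not called in any of the 6 comparisons, nor were S100a4, Pdcd6ip and Sri. S100a4, another S100 protein, had log2 fold changes of 1.65 in SCM (adjusted p = 0.0932, by edgeR) and 1.40 in Wnt5a (adjusted p = 0.125). The calcium-binding protein Sri had 0.44 and 0.40 (adjusted p = 0.00552 and 0.00640, by edgeR) and Pdcd6ip (ALIX) had 0.16 and 0.42 (adjusted p = 0.418 and 0.00711), all under a 1.5-fold change. In QCM 1 partner was higher, Capn1 (0.62, adjusted p = 0.00780, by edgeR). That call was lost without replicate 3 of complete media + IgG or replicate 2 or 4 of QCM + IgG. In SCM against QCM edgeR called 0 partners. There 13 had an unadjusted p under 0.05 by edgeR, a level for which the share of all genes is not given. Partners called in SCM against QCM were 1 by DESeq2 and 2 by voom with limma. EdgeR called 1 without replicate 1 or 5 of QCM + IgG or replicate 3 of SCM + IgG. It called 3 with only the groups compared (1.67% of all genes higher) and 5 without replicate 1 in any condition (1.58%). With anti-Ptk7 1 partner, Plat, the tissue plasminogen activator, was lower in each medium, against 0.645% of all genes in SCM and 0.432% in Wnt5a. Its mean was 31.2 ± 9.22 CPM in SCM + IgG and 8.27 ± 3.38 CPM in SCM + anti-Ptk7. Its log2 fold changes were -1.91 in SCM and -1.18 in Wnt5a (adjusted p = 0.000130 and 0.0131, by edgeR). In complete media + IgG the mean of Plat was 22.9 ± 8.68 CPM. Against complete media Plat was not called in SCM (0.45, adjusted p = 0.316, by edgeR) or in Wnt5a (0.31, adjusted p = 0.451).

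**Figure D5:**
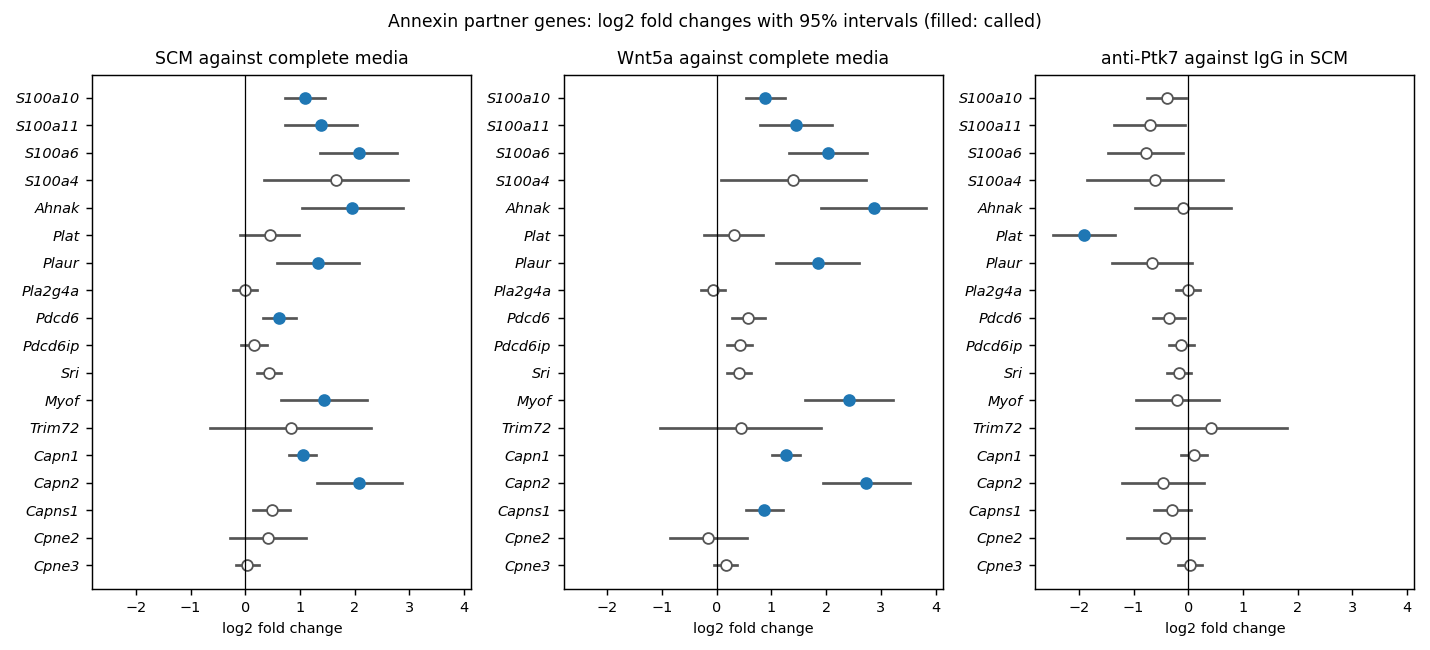
Log2 fold change with 95% interval of the 18 annexin partner genes tested, in SCM and Wnt5a against complete media and for anti-Ptk7 against IgG in SCM, with filled points for called genes. Of the 18, 9 are filled in each of the media comparisons, and Plat alone is filled, at -1.91, for the antibody.

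The annexins Anxa9 and Anxa11, outside the 10, gave no called difference. Anxa11, a carrier of RNA granules, had means of 87.9 ± 18.2 CPM in complete media + IgG, 66.3 ± 7.20 CPM in SCM + IgG and 68.4 ± 7.89 CPM in Wnt5a + IgG (SD, n = 6). Its log2 fold changes were -0.41 (adjusted p = 0.0368) and -0.36 (adjusted p = 0.0425) by edgeR, both under a 1.5-fold change. Anxa9 had a mean of 3.20 CPM over the 36 libraries. With anti-Ptk7 its log2 fold changes were 0.71 in SCM and 0.80 in Wnt5a, neither past the test (adjusted p = 0.395 and 0.374, by edgeR), and in Wnt5a its libraries ran from 1.31 to 3.25 CPM with IgG and from 3.38 to 6.24 CPM with the antibody.

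Other epithelial markers moved in the same libraries, and their part in the annexin differences was not tested. Of 5 genes of fetal-like epithelium, 4 were tested and all 4 were higher in SCM and in Wnt5a. Their summed level over the 5 genes ran from 110 to 498.5 CPM in complete media + IgG, from 911 to 2915 CPM in SCM + IgG and from 2665 to 8200 CPM in Wnt5a + IgG. Clu (clusterin) was the larger part of it in SCM and Wnt5a, with means of 51.0 CPM in complete media + IgG, 1211 CPM in SCM + IgG and 3775 CPM in Wnt5a + IgG. Of 8 epithelial markers 3 were higher in SCM and 4 in Wnt5a, among them the keratins, with Krt8 at a mean of 732 CPM in complete media + IgG and 1735 CPM in Wnt5a + IgG. Of 6 enterocyte markers 4 were higher in SCM and 3 in Wnt5a, and of 5 goblet and 5 enteroendocrine markers 0 in either. Of 4 Paneth markers 2 were higher in both media (Mmp7 and Ang4), and of 4 tuft markers tested 0 were higher in SCM and 3 in Wnt5a (Dclk1, Trpm5 and Avil). Of 4 stem cell markers 1, Smoc2, was lower in both media, and of 4 proliferation markers 0 were called. Fibroblast markers held at most 2.70 CPM in sum in SCM + IgG and at most 5.69 CPM in complete media + IgG. The exons of Anxa2 and Anxa4 share 98 and 75 bases with genes of the opposite strand, and those of Anxa3 share 112 with one of the same strand. Whether the counting used the strand is not stated.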

How the data were processed

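Gene counts were deposited per library as whole numbers, without normalization by the authors. The authors aligned reads with GSNAP to mm10, per the submitters' processing notes, and state that they counted reads in coding sequence. Libraries were made with Smart-Seq v4 and Nextera XT, whose amplification adds to the spread. The annotation and the use of strand are not given in the sources used here. Here R 4.3.3, edgeR 4.0.16, limma 3.58.1 and DESeq2 1.42.0 were used. Genes were filtered with filterByExpr, scaled by TMM and fitted with edgeR's quasi-likelihood test in one model of 6 condition means. P values were adjusted by Benjamini and Hochberg over the 15497 genes tested, and calls needed an adjusted p under 0.05 and a fold over 1.5. Log2 CPM used a prior count of 2. Intervals are 95%. The fit was tested on simulated data without any effect of replicate number, so that test does not cover the spread by number seen for the annexins. Lengths, positions and gene types came from GENCODE for GRCm38, promoters from RefSeq. In 90 pairs of replicates the chi-square of counts per gene was 7.25 to 83.0, far over counting noise. The floor for a count of 0 was 3 counts and covers counting error only. The members and gene lists were chosen with earlier results of these data known. The text names all members, Anxa9 and Anxa11, called partners, and the 2 genes of highest Pearson r with each member. The other partners tested are named beside the called ones, outside that rule. Alternatives were median-ratio scaling, library size alone, DESeq2, voom with limma, no filter, the replicate number as block, the groups compared alone, each library left out, and, added later, replicate 1 left out and levels per kilobase of coding length in place of merged exon length.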

Additional observations from a re-analysis of the deposited data

Results flagged for a closer look

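Of 60 sets of 6 libraries (10 annexins in 6 conditions), 12 held a library far from the other 5 by Dixon's test on CPM, which chance flags in about 1 in 20 single groups. All 12 rest on 2 libraries, replicate 1 of Wnt5a + IgG and of Wnt5a + anti-Ptk7. Annexins of 1 library are not independent (7 of them correlated pairwise at 0.84 to 0.99 for deviations within conditions), so the 12 are not to be read as 12 separate cases. In Wnt5a + anti-Ptk7 this library held 1120 CPM of Anxa1, 7677 of Anxa2, 533.1 of Anxa3, 3884 of Anxa4, 440.1 of Anxa5, 23.55 of Anxa6, 364.2 of Anxa7, 189.5 of Anxa8 and 899.5 of Anxa10. The nearest of the other libraries held 537 CPM of Anxa1, 3871 of Anxa2 and 91.9 of Anxa8. In Wnt5a + IgG it held 7414 CPM of Anxa2, 542.7 of Anxa3 and 351 of Anxa7, with 4355, 334 and 215 CPM in the nearest library. Anxa13 was not among them in any condition.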

How the results depend on the processing

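Of 1520 values of single genes under alternatives, 1466 kept their direction and side of the threshold, 30 passed it anew, 18 lost it and 6 values that were not called changed sign. The 8 annexins called in SCM and in Wnt5a against complete media numbered 7 to 8 with any library left out. The replicate numbers were not taken as pairs, since the labels do not say what libraries of a number share. Over all genes tested, 34 of 90 same-number pairs correlated above 0.1 (smallest -0.0442), with a mean of 0.092 against -0.018 for different numbers. Of 36 libraries 16 lay closest to their own number, and for the annexins the number held a median of 35.6% of the variation. If the numbers do pair the cultures, a fit without them counts that shared part as spread. With that number as a block in the model (the replicate block), the calls of annexins were 3 higher for QCM against complete media (1.07% of all genes in that fit), 6 higher for SCM against QCM (2.74%), 7 lower for anti-Ptk7 in SCM (1.52%) and 1 lower for anti-Ptk7 in Wnt5a (0.8%), those of partners 4, 8 and 4 in the first 3 of these, and those of neighbouring conditions 10. Annexins called for anti-Ptk7 in SCM were 2 by DESeq2, 3 by voom with limma and 3 without replicate 1 in any condition. For SCM against QCM they were 5 with only the groups compared (1.67% of all genes higher) and 5 without replicate 1 in any condition. Partners for SCM against QCM were 1 with library size alone, 1 by DESeq2, 2 by voom, 3 with only the groups compared and 5 without replicate 1, and for QCM against complete media 0 by voom and 3 without replicate 1. Neighbouring conditions called were 0 by DESeq2 and 0 with no filter. Of the 20 genes most like a member, 4 were still among its 2 most similar for deviations from the condition means. With 1 library left out, counts ranged from 1 to 2 (anti-Ptk7 in SCM), 0 to 2 (SCM against QCM) and 0 to 1 (neighbours) for annexins, and from 0 to 1 (QCM and SCM against QCM), 7 to 9 (SCM) and 9 to 10 (Wnt5a) for partners. Sign changes were Anxa4 in SCM against QCM by voom (-0.10) and, for anti-Ptk7 in Wnt5a with 1 library left out, Anxa2 (-0.55 to 0.10), Anxa5 (-0.45 to 0.08), Anxa7 (-0.34 to 0.05), Anxa4 (-0.04 to 0.14) and Anxa10 (-0.22 to 0.36), in each case between the fits without replicate 1 of Wnt5a + IgG and of Wnt5a + anti-Ptk7. The cause was not tested.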
